A study of Mus musculus with 5 samples.

Results

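Doxorubicin was set against vehicle after 9 hours in mouse embryonic fibroblasts, as the log2 signal of the doxorubicin array minus that of the vehicle array. Of 22180 genes with a probe set of a single symbol, 12311 were analysed, namely those whose highest value over the 5 arrays reached that array's median over single-symbol probe sets. The study holds 5 arrays, 1 for each of doxorubicin, Compound C, GSK 690693, tofacitinib and vehicle, so no difference carries an error, a replicate check or a test, and the number of arrays limits the precision. The cells of all 5 arrays, labelled as primary fibroblasts, lacked endogenous STING (STING-/-) and expressed the R284S variant of STING, the adaptor of cytosolic DNA sensing. The submitters describe the compounds as AMPK inhibitors, and the series asks how gene expression in these cells differs under each. The labels state no dose, no promoter for the variant and not whether the line is 1 clone.

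Doxorubicin is an anthracycline that inserts between DNA bases and traps topoisomerase II on cut DNA, which leaves double-strand breaks. Cells answer such breaks through the kinase ATM and the transcription factor p53, whose targets include the cell cycle inhibitor Cdkn1a and the p53 ubiquitin ligase Mdm2. Anthracyclines also displace histones from chromatin and can hinder transcription, and they enter mitochondria and bind mitochondrial DNA. Transcripts with a short life are those whose level answers soonest when their synthesis changes. None of this background is a result of these arrays.

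The 15 fibroblast markers were all analysed, and Fn1 (fibronectin) and Vim (vimentin) were bright on the doxorubicin array at a log2 signal of 12.56 and 12.68, against 12.45 and 12.49 on the vehicle array. Of other cell types, 4 of 13 macrophage and leukocyte markers, 2 of 10 endothelial, 6 of 10 epithelial, 6 of 11 neural, 7 of 11 muscle and 3 of 10 pluripotency markers reached the filter. The leukocyte marker Ptprc and the endothelial marker Pecam1 stayed below it. Cd68, a macrophage marker, had 7.63 with doxorubicin and 6.56 to 6.88 on the others. The other analysed markers of that list, Csf1r, Cd14 and Fcer1g, differed from vehicle by 0.34, 0.32 and -0.07. The pluripotency factor Sox2 had 5.63 with doxorubicin against 3.92 with vehicle, and it reached the filter on the doxorubicin array alone. The other analysed pluripotency markers, Pou5f1 and Lin28a, differed by 0.01 and 0.02. In a bulk sample, fewer cells of a type and less RNA per cell cannot be told apart. Over analysed genes, log2 differences had a standard deviation of 0.584 between doxorubicin and vehicle and of 0.258 between GSK 690693 and tofacitinib, the closest pair of arrays.

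At least 2-fold lower with doxorubicin than with vehicle were 795 of 12311 genes (6.46%), and 164 were at least 2-fold higher (1.33%). At 1.5-fold, 1750 genes were lower (14.2%) and 1421 higher (11.5%). The median log2 difference was 0.05, so the middle of the distribution lay close to vehicle while the lower tail was long. At least 4-fold lower were 89 genes, against 1 gene at least 4-fold higher, and 14 were at least 8-fold lower. Doxorubicin gave the lowest of the 5 arrays for 25.4% of all genes and the highest for 35.7%, and 45% lay below vehicle and 54% above it by any amount. Of the 795 lower genes, it gave the lowest in 769. Of the 164 higher genes doxorubicin gave the highest in 155, but vehicle was also the lowest of 5 in 132 of them. By a log2 gap of 1 or more to every other array, doxorubicin was lowest for 477 genes (3.87%) and highest for 12 (0.0975%). Of the 795 lower genes, 134 read under the doxorubicin array's median over single-symbol probe sets, so they passed the filter through other arrays. By mean log2 signal on the doxorubicin and vehicle arrays, the share of genes at least 2-fold lower was 3.24% at 5 to 6, 9.18% at 6 to 7, 9.74% at 7 to 8, 6.32% at 8 to 9, 3.24% at 9 to 10 and 1.55% at 10 or more. Of the 147 genes under 5, 28 were at least 2-fold lower, a larger share than at any other level, and 6 were at least 2-fold higher. This share is not read with the others, since a gene under 5 passed only through an array brighter than that mean. That array could be vehicle itself, as for Mir300, at 2.74 with doxorubicin and 5.92 with vehicle.

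**Figure D1:**
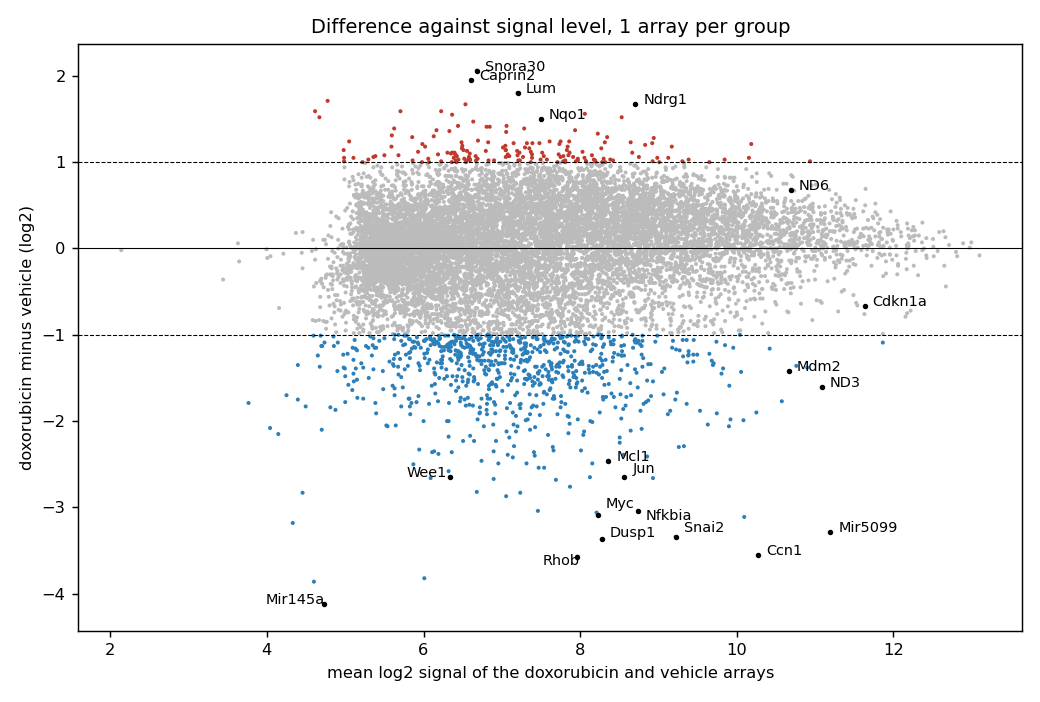
Log2 difference, doxorubicin minus vehicle (vertical), against the mean log2 signal of both arrays (horizontal), with 1 point per analysed gene. Points beyond the dashed lines at 1 and -1 are the 164 higher genes (red) and the 795 lower genes (blue), named genes are black, and the lower tail reaches -4.12 while the upper ends at 2.06.

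Small RNA genes aside, Rhob, Ccn1, Dusp1, Snai2 and Cited2 lay lowest against vehicle. Rhob, a small GTPase of the actin cytoskeleton and of endosomes, had a log2 signal of 6.18 with doxorubicin, 9.53 with Compound C, 10.05 with GSK 690693, 9.92 with tofacitinib and 9.75 with vehicle. Ccn1, a secreted matrix-associated protein that binds integrins, had 8.50 with doxorubicin and between 11.97 and 12.18 on the other 4 arrays. For these 2 genes doxorubicin stood apart by log2 gaps of 3.35 and 3.47, and the other 4 arrays lay close together. Dusp1, a phosphatase that switches off MAP kinases, had a log2 signal of 6.59 with doxorubicin, 9.19 with Compound C, 10.04 with GSK 690693, 9.72 with tofacitinib and 9.96 with vehicle. Nfkbia, the inhibitor that holds NF-kB in the cytoplasm, had 7.22 with doxorubicin, 9.38 with Compound C, 10.12 with GSK 690693, 10.31 with tofacitinib and 10.26 with vehicle. In both, Compound C was second lowest and the remaining arrays lay higher. Wee1, the kinase that holds CDK1 inactive before mitosis, read 5.01 with doxorubicin and 7.66 to 8.08 on the others, and Pnrc2, a cofactor of mRNA decapping, read 6.20 against 8.58 to 8.87.

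As 4 of the lowest genes, with values given above, Rhob, Ccn1, Dusp1 and Nfkbia are shown with the 250 bases before the RefSeq transcription start (build GRCm38.p6, 5′ to 3′ on the gene's strand, last base next to the start). Capitals mark every match, on either strand, to the GC box GGGCGG, the CCAAT box CCAAT, the TATA box TATAAA, the cAMP response element (CRE) TGACGTCA, the E-box CACGTG and the BMP SMAD element GGCGCC. The NF-kB consensus is capitalised likewise, and the AP-1 site TGACTCA and the CArG box of serum response elements were searched too.
Rhob, chr12:8500010-8500259, minus strand: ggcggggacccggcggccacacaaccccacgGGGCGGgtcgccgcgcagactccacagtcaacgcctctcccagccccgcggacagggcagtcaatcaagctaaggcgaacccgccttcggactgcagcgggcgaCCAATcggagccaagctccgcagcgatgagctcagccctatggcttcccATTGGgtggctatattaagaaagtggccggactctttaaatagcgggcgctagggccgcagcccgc
Ccn1, chr3:145649986-145650235, minus strand: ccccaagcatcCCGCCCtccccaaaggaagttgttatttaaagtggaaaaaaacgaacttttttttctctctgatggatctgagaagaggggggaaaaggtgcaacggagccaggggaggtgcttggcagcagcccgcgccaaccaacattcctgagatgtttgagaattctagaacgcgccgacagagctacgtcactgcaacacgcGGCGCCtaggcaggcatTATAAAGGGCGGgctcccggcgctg
Dusp1, chr17:26508473-26508722, minus strand: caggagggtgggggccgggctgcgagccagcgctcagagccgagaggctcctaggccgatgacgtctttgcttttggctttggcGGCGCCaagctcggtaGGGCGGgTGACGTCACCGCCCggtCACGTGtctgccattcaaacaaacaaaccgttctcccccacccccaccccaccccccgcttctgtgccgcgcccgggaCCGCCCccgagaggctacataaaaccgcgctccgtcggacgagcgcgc
Nfkbia, chr12:55492648-55492897, minus strand: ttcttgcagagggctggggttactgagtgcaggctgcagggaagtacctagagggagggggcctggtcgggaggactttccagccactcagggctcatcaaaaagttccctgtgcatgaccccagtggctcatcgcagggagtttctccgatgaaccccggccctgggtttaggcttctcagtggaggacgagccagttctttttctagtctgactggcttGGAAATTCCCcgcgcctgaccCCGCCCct
Dusp1 held a CRE whose first base lies 143 bases before the start, between GC boxes at 150 and 135 bases, and an E-box at 126. The TATA box of Ccn1, at 25 bases, runs straight into a GC box at 19, so the capitals there join. Rhob held 2 CCAAT boxes, at 115 and 66 bases, and Nfkbia an NF-kB match at 29 bases, on the minus strand, and a GC box at 8. Of the 20 lowest genes outside the small RNA classes, 14 had a promoter in the table. A GC box lay in 13 of the 14, a CCAAT box in 7, a BMP SMAD element in 4, an E-box in 2, a TATA box in 1 and a CRE in 1. An NF-kB match lay in 2, Nfkbia and Ankrd49, and a CArG box and an AP-1 site lay in 0. Over the promoters of all 9440 analysed protein-coding genes that had one, the shares were 60.2% for the GC box, 36.3% for the CCAAT box, 17.1% for the BMP SMAD element, 8.56% for the E-box, 6.53% for the TATA box, 2.74% for the CRE, 8.71% for NF-kB, 3.15% for AP-1 and 1.27% for the CArG box. Over the first promoter of all 27025 genes in the table, the GC box share was 32.9% and the NF-kB share 7.01%. These are matches of letters in a short window and say nothing of what binds there.

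Compared over all lower genes, the promoters were richer in CpG and poorer in AP-1 letters than those of analysed genes in general. A promoter was found for 9440 of 11612 analysed protein-coding genes (81.3%) and for 615 of the 767 that were at least 2-fold lower (80.2%). It was found for only 74.0% of the higher ones, so for those the comparison is void. The median number of CpG in 250 bases was 18 in lower genes and 16 in all analysed genes. A GC box lay in 66.7% of lower genes against 60.2% of all, a CRE in 3.58% against 2.74%, a CArG box in 1.3% against 1.27% and an AP-1 site in 1.3% against 3.15%. The share of genes at least 2-fold lower was 3.71% at 0 to 4 CpG, 6.43% at 15 to 19, 9.44% at 25 to 29 and 8.33% at 30 or more.

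**Figure D2:**
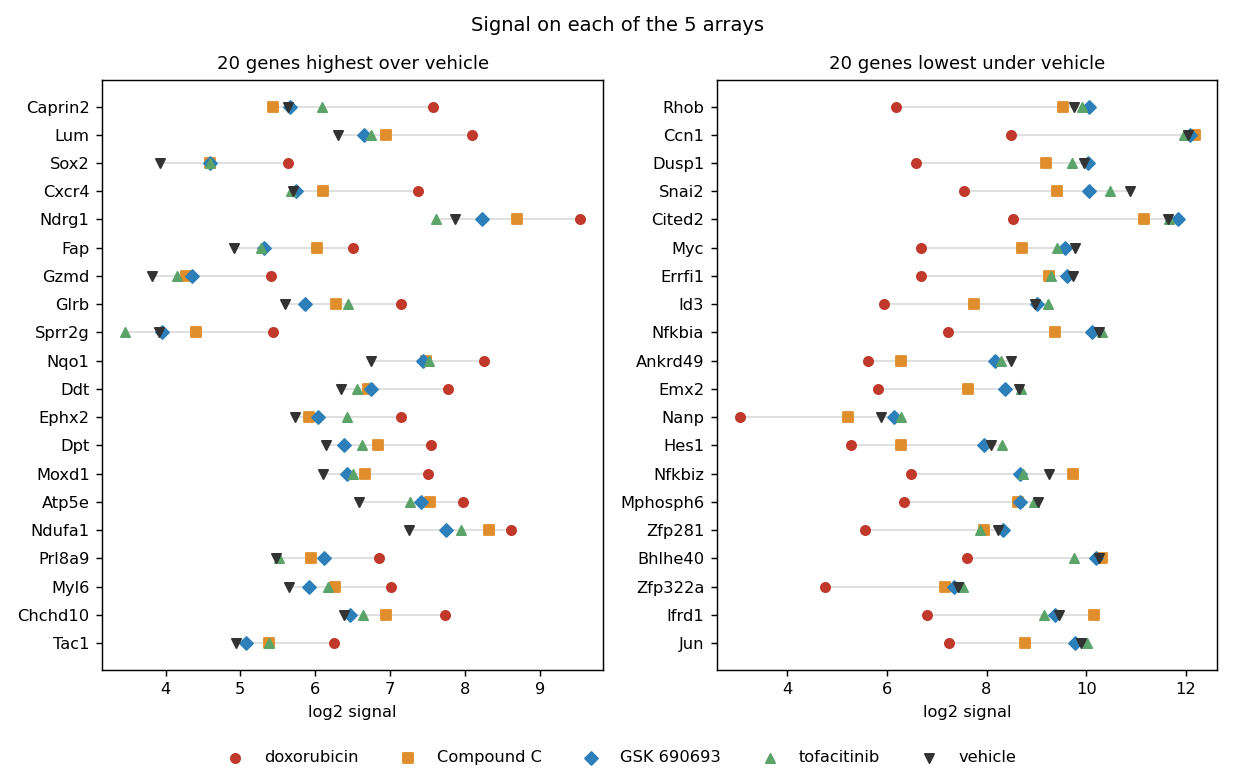
Log2 signal (horizontal) on each of the 5 arrays, small RNA genes left out, for the 20 genes highest over vehicle (left panel) and the 20 lowest under it (right panel), with 1 row per gene and 1 marker per array. On the right the doxorubicin marker lies left of all others in every row. On the left it lies right of all others, with vehicle as the lowest marker in most rows.

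Immediate early genes, which are switched on within minutes of a growth stimulus and whose mRNAs decay fast, were mostly lower, with a few members above vehicle. Of 37 analysed members of the list outside the AP-1 family, 22 were at least 2-fold lower, 0 were 2-fold higher and the median log2 difference was -1.18. Myc, the growth-promoting transcription factor, had a log2 signal of 6.68 with doxorubicin, 8.72 with Compound C, 9.58 with GSK 690693, 9.41 with tofacitinib and 9.77 with vehicle. Cited2, a coactivator partner of CBP and p300, had 8.54 with doxorubicin and 11.17 to 11.85 on the others. Ier3 (log2 difference -1.99), Sgk1 (-2.36), Gadd45b (-1.67) and the AU-rich mRNA-binding proteins Zfp36 (-1.47) and Zfp36l2 (-1.35) were also lower. On the higher side, Egr2 had a log2 signal of 6.95 with doxorubicin against 6.21 with vehicle, Arc 7.22 against 6.63, Nr4a3 6.31 against 5.72 and Egr3 6.20 against 5.62. Those 4 were above vehicle by 0.58 to 0.74. Doxorubicin was the highest of the 5 arrays for all but Nr4a3, which Compound C exceeded at 7.12. Over all analysed genes, 11.5% were at least 1.5-fold higher (a log2 difference of 0.585), a size that Egr3 did not reach.

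In the AP-1 family, whose Fos and Jun proteins pair to bind DNA, the difference followed no single direction. Jun had a log2 signal of 7.24 with doxorubicin, 8.78 with Compound C, 9.78 with GSK 690693, 10.02 with tofacitinib and 9.89 with vehicle. Fosl2 (-1.92), Junb (-1.42) and Atf4 (-1.26) were at least 2-fold lower too, and these 4 were all the members past that size among 18. Fosb was above vehicle by 0.71, at 6.88 against 6.17. Fos lay 0.15 above vehicle, and Egr1, a zinc finger gene outside the family, lay 0.57 below it. Among the KLF and SP zinc finger factors, 9 of 17 were at least 1.5-fold lower and 0 higher, led by Klf6 (-1.91), Klf4 (-1.81), Klf3 (-1.70) and Klf10 (-1.59).

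Feedback inhibitors of MAP kinase and receptor signalling were lower as well. Of 19 dual-specificity phosphatase genes, 7 were at least 2-fold lower. They were the ERK phosphatases Dusp6 (-2.54), Dusp5 (-1.85), Dusp7 (-1.57) and Dusp4 (-1.44), and Dusp1, Dusp10 (-1.57) and Dusp16 (-1.54), which act on JNK and p38. A second, dimmer probe set of Dusp6 read 3.42 with doxorubicin and 3.30 with vehicle. Dusp28 was the 1 member at least 1.5-fold higher, at 6.55 against 5.87. Of 17 EGF receptor ligand and ERK feedback genes, 6 were at least 2-fold lower and 0 higher. Errfi1, an inhibitor of the EGF receptor kinase, had a log2 signal of 6.68 with doxorubicin and 9.26 to 9.74 on the others, and Spry2 (-1.98) and Spred2 (-1.27) inhibit the Ras to ERK step.

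Some, but not all, inhibitors and adaptors of NF-kB, which drives inflammatory genes, were lower too. Of 27 members, 10 were at least 2-fold lower, against 6.46% of all analysed genes, and 1 (Ikbke, 0.78) was at least 1.5-fold higher. After Nfkbia came the nuclear inhibitor Nfkbiz, with a log2 signal of 6.49 with doxorubicin, 9.74 with Compound C, 8.68 with GSK 690693, 8.73 with tofacitinib and 9.25 with vehicle. The adaptor ligase Traf6 (-1.41), the kinase Map3k8 (-1.37) and Traf2 (-1.16) were lower, and the DNA-binding subunit Rela had 9.91 with doxorubicin against 10.89 with vehicle. Others were near or above vehicle, among them Nfkbib (0.20), Nfkbid (0.10), Nfkbie (-0.24) and Map3k7 (0.50). Chemokines and cytokines, many of them NF-kB targets, were not lower as a list. Of 29 analysed, 6 were at least 1.5-fold higher and 2 lower, with a median log2 difference of 0.20. Cxcl3, a neutrophil chemokine, had a log2 signal of 7.76 with doxorubicin, 5.97 with Compound C, 6.71 with GSK 690693, 7.01 with tofacitinib and 6.63 with vehicle, and Il33, an alarmin, had 7.62 against 6.55 with vehicle. Ccl8 was higher by 1.14 and Ccl4 lower by 1.04. Il6 read 9.41 with doxorubicin and 9.45 with vehicle.

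In the cytosolic DNA-sensing route, the sensor Cgas and the kinase Tbk1 were lower, other members lay on both sides of vehicle and the targets were near it. Cgas, the DNA sensor, had a log2 signal of 4.95 with doxorubicin and 6.34 to 6.41 on the other 4 arrays. Tbk1, the kinase that STING recruits, had 7.19 with doxorubicin and 8.69 to 9.06 on the others, and Irf3, its substrate, had 6.65 against 6.92 with vehicle. Doxorubicin was thus the lowest array for Cgas and Tbk1, while for Irf3 Compound C lay lower at 6.42. Trim32, a ubiquitin ligase of STING, had 5.61 with doxorubicin and 7.34 with vehicle. Cgas, Tbk1 and Trim32 were the only analysed members of this list at least 1.5-fold lower. Ikbke (0.78) and Nlrc3 (0.63) were the only ones higher by that much, where the shares over all analysed genes were 14.2% lower and 11.5% higher. Interferon-stimulated genes had 4 of 52 members at least 1.5-fold higher and 6 lower, against 11.5% and 14.2% of all analysed genes. Their median log2 difference was -0.10. The same 52 had medians of -0.56 with Compound C, -0.60 with GSK 690693 and -0.74 with tofacitinib, all against the one vehicle array. Ifitm2, a membrane protein that hinders virus entry, had a log2 signal of 9.53 with doxorubicin and 8.31 to 8.77 on the others. Gbp5, a guanylate-binding protein, had 5.63 against 4.34 to 4.58. Gbp5 reached the filter on the doxorubicin array alone, so it had to lie on the higher side, where it is counted among the 4. Trim30d, at 6.58 with doxorubicin and 7.90 with vehicle, lay above the median of the other 4 arrays and below vehicle. Ifnb1 (interferon beta) and Sting1 stayed below the filter on all arrays. Where the Sting1 probe set lies relative to the disrupted sequence is not given in the sources used here, so it does not check the genotype.

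Targets of BMP signalling, a branch of the TGF-beta family that acts through SMAD proteins, were lower with doxorubicin and partly with Compound C, which inhibits BMP type I receptors. With doxorubicin, 11 of 21 analysed were 2-fold or more below vehicle and 0 above it by that much. Id3, an inhibitor of helix-loop-helix factors, had a log2 signal of 5.94 with doxorubicin, 7.74 with Compound C, 9.02 with GSK 690693, 9.23 with tofacitinib and 8.98 with vehicle. Id1 had 5.51 with doxorubicin, 6.14 with Compound C, 8.32 with GSK 690693, 8.02 with tofacitinib and 7.97 with vehicle. For these genes the doxorubicin and Compound C arrays both lay below the other 3, with doxorubicin the lower. Smad6, an inhibitory SMAD, had 6.07 with doxorubicin, 5.97 with Compound C and 7.32 with vehicle, and Atoh8 had 6.01 on both the doxorubicin and the Compound C array and 8.30 with vehicle. Tnfaip6, a hyaluronan-binding protein, went the other way, at 6.73 with doxorubicin against 5.80 with vehicle. Of 8 hedgehog pathway genes, Sufu, the inhibitor of GLI factors (-1.84), and the transcription factor Gli2 (-1.05) were at least 2-fold lower. The receptor Ptch1 (-0.91), Gli3 (-0.92) and the coreceptor Boc (-0.70) were at least 1.5-fold lower, and Smo, Gas1 and Cdon differed by 0.07, -0.23 and 0.35.

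Genes under forkhead FOXO factors and of insulin feedback held one of the lowest list medians, at -1.08, with 12 of 23 at least 2-fold lower. Ddit4 and Sesn2, which restrain the growth kinase mTORC1, had log2 signals of 5.71 and 6.49 with doxorubicin, against 8.20 and 8.83 with vehicle. Txnip, an inhibitor of thioredoxin and of glucose uptake, had 7.65 with doxorubicin and 9.87 to 10.30 on the other arrays, and its relative Arrdc3 had 4.96 against 7.31 with vehicle. The insulin receptor substrates Irs1 (-1.37) and Irs2 (-1.20) and Foxo1 itself (-1.23) were lower, though a second probe set of Foxo1 differed by -0.42. Sesn3 stood opposite to Sesn2, at 8.37 with doxorubicin and 7.42 to 7.99 on the others. With GSK 690693, an AKT inhibitor, the same list had a median of 0.08 against vehicle.

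Among mesenchymal transcription factors and YAP targets and regulators, single genes were far below vehicle while the list medians were not. Snai2, a repressor of epithelial genes, had a log2 signal of 7.55 with doxorubicin, 9.41 with Compound C, 10.06 with GSK 690693, 10.48 with tofacitinib and 10.89 with vehicle. Its relative Snai1 had 5.32 with doxorubicin and 6.71 to 7.32 on the others, and the remaining 11 mesenchymal factors of the list held 1 more gene past 2-fold, Foxc2 (-1.02). Ajuba (-2.06), Amotl2 (-1.42) and Ccn2 (-1.36), known with Ccn1 as YAP targets, were lower. The median was -0.19 over the 31 genes of the list, which also holds Yap1 itself, its TEAD partners and regulators such as Lats1.

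Topoisomerase and break-response genes lay on both sides of vehicle, with few above it by 1.5-fold. Top2a, the proliferation-linked topoisomerase II, had a log2 signal of 7.61 with doxorubicin, 7.49 with Compound C, 8.49 with GSK 690693, 8.83 with tofacitinib and 8.41 with vehicle. Top2b, the isoform of resting cells, had 8.43 with doxorubicin and 8.53 to 8.88 on the others, and Top1 had 9.82 against 9.88 with vehicle. Top2a was thus as low with Compound C as with doxorubicin, and Top2b varied little. Tdp2, the enzyme that frees topoisomerase II from DNA ends, had 6.44 with doxorubicin and 7.44 to 7.58 on the other 4 arrays. Of 32 genes of double-strand break signalling, 9 were at least 2-fold lower and 0 higher. Beside Wee1 they included the chromatin ubiquitin ligase Rnf168 (-1.57), the CDK phosphatase Cdc25a (-1.49), the checkpoint-ending phosphatase Ppm1d (-1.41), Rif1 (-1.40), which limits end resection, and the histone variant H2ax (-1.23). Atm, the kinase at the head of the response, was the 1 member at least 1.5-fold higher, with a log2 signal of 8.0 with doxorubicin and 7.14 to 7.56 on the other 4. Of 9 end-joining genes, 1 was at least 1.5-fold higher and 2 lower, where the shares over all analysed genes were 11.5% and 14.2%. Xrcc4, a partner of the ligase, had 6.67 with doxorubicin against 5.98 with vehicle, and the Ku subunits Xrcc5 and Xrcc6 lay 0.52 and 0.46 above vehicle. Doxorubicin was the highest of 5 arrays for all 3, as it was for 35.7% of all analysed genes. The ligase Lig4 (-0.82) and Aplf (-0.70) were lower. Of 25 homologous recombination and Fanconi genes, 9 were at least 1.5-fold lower and 0 higher, led by the nuclease Exo1 at 4.95 against 6.69 with vehicle. Mitosis genes had 23 of 62 at least 1.5-fold lower and 0 higher. Kif20b (-1.79), Sgo1 (-1.48) and Ndc80 (-1.47) were lowest, and Plk1 had 7.47 with doxorubicin, 7.10 with Compound C and 8.30 with vehicle.

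The p53 targets did not stand above vehicle at 9 hours. Of 46 analysed, 13 were at least 1.5-fold lower and 6 higher, against 14.2% and 11.5% of all analysed genes. The median log2 difference was -0.04. Mdm2 had a log2 signal of 9.96 with doxorubicin, 11.72 with Compound C, 11.12 with GSK 690693, 11.11 with tofacitinib and 11.38 with vehicle. Cdkn1a had 11.30 with doxorubicin, 12.10 with Compound C, 11.50 with GSK 690693, 11.63 with tofacitinib and 11.97 with vehicle. Both were bright on every array and lowest with doxorubicin, by gaps of 1.15 and 0.20 to the next array. Ccng1 read 12.18 on both the doxorubicin and the vehicle array. The mitochondrial death gene Bbc3 (-0.76), the apoptosome gene Apaf1 (-0.89) and Phlda3, an AKT inhibitor (-0.82), were lower, and the higher 6 were Ndrg1 (1.67), Perp (0.91), Cd82 (0.84), Steap3 (0.75), Pltp (0.73) and Dcxr (0.68). In the BCL2 family, the survival gene Mcl1, whose mRNA and protein are short-lived, had a log2 signal of 7.13 with doxorubicin and 9.59 to 9.93 on the others. A dimmer second probe set of Mcl1 read 4.10 with doxorubicin and 4.83 with vehicle. Bcl2l1, which encodes BCL-XL, had 6.37 with doxorubicin against 7.28 with vehicle, and the death-promoting Bcl2l11 had 6.24 against 6.92.

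Genes that act on chromatin and on RNA polymerase II were lower by smaller amounts but in large numbers. Of 37 histone methyltransferase and demethylase genes, 18 were at least 1.5-fold lower and 1 higher. Kmt2e had a log2 signal of 7.42 with doxorubicin and 8.74 to 9.58 on the others, and the H3K27 demethylase Kdm6a, the H3K79 methyltransferase Dot1l and the H3K36 methyltransferase Setd2 differed by -1.49, -1.45 and -1.11. Ehmt2, an H3K9 methyltransferase, had 8.97 against 8.31 with vehicle and was the 1 member on the higher side. Mediator, the bridge between activators and the polymerase, had 11 of 32 subunits at least 1.5-fold lower, from Med4 (-1.57) and Med17 (-1.49), and 3 higher, with Med30 at 0.92. The elongation list had 12 of 38 lower and 0 higher, with the CDK-activating kinase Cdk7 (-1.43) and the P-TEFb cyclins Ccnt2 (-1.20) and Ccnt1 (-1.03). Of 12 analysed genes with Polr2 symbols, for polymerase II itself, 0 were at least 1.5-fold lower and 3 higher, against 14.2% and 11.5% of all analysed genes. Polr2h was not among the 12, so the enzyme was not read in full. Zinc finger genes with numbered symbols, many of which encode KRAB repressors of repeats, had 140 of 275 at least 1.5-fold lower and 1 higher (Zfp106, 0.74). In 200 of the 275, doxorubicin was the lowest of the 5 arrays, against 25.4% of all analysed genes.

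RNA processing genes differed between lists. Of 27 SR splicing proteins, related splicing factors and their kinases, 8 were at least 1.5-fold lower and 0 higher, against 14.2% and 11.5% of all analysed genes. Among the 8 were Rbm25 (-1.43), Luc7l3 (-1.32) and the SR kinases Clk1 (-1.14) and Clk4 (-1.02). Of the SR proteins with Srsf symbols, only Srsf10 (-1.07) was past 1.5-fold. Srsf5 (0.25) and Srsf9 (0.37) lay above vehicle and the others below it by less than 1.5-fold. The 24 hnRNP genes, which also bind nascent transcripts, had 0 members past 1.5-fold in either direction, with a median of -0.02. Rbm5, a splicing regulator of the RNA-binding motif group, had a log2 signal of 6.85 with doxorubicin and 8.80 to 9.11 on the others. Of 50 mRNA decay genes, 16 were at least 1.5-fold lower and 1 higher. The antiproliferative deadenylation cofactor Tob1 had 6.51 with doxorubicin and 8.38 to 9.20 on the others, and Dcp1a, a decapping activator, had 6.12 against 7.94 to 8.81. Circadian clock genes had 7 of 18 lower and 0 higher, with the repressors Bhlhe40 (-2.66) and Nr1d1 (-1.98) and the activator Arntl (-1.42).

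**Figure D3:**
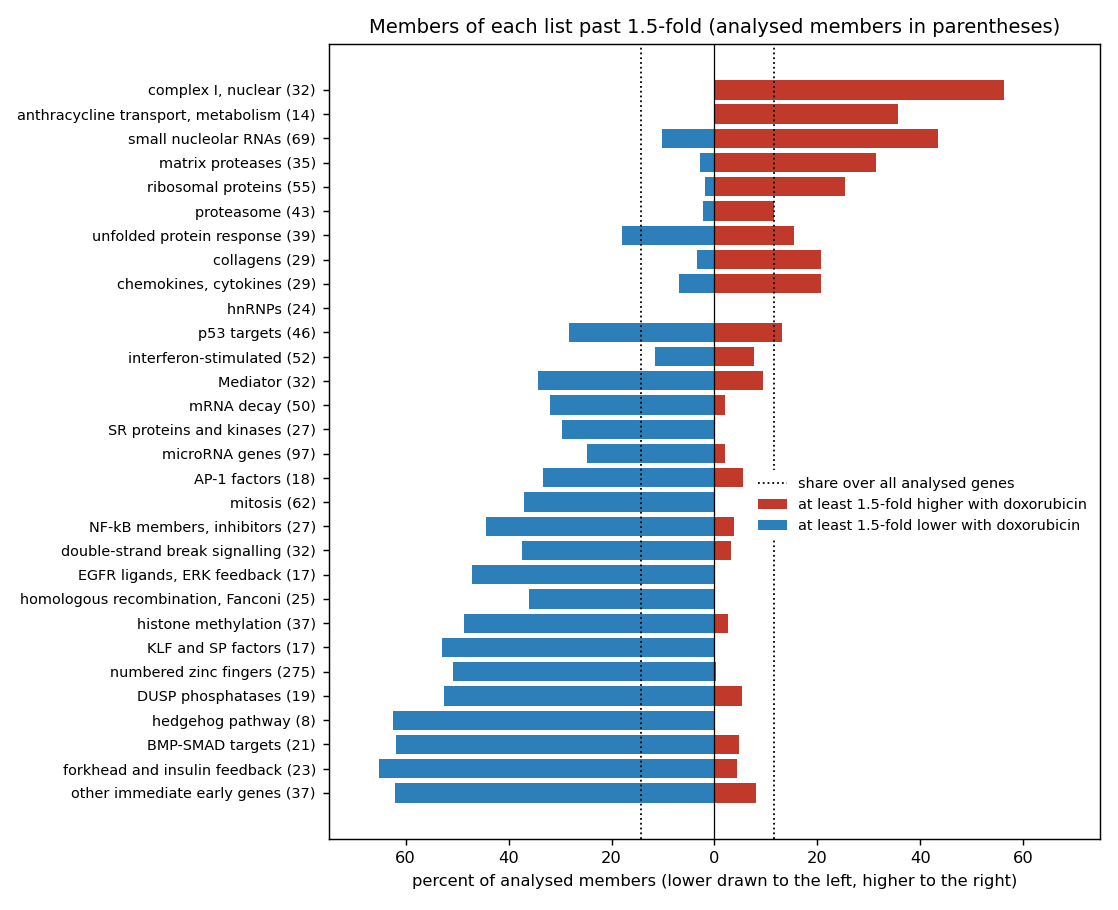
Percent of the analysed members of 30 gene lists that were at least 1.5-fold higher (red, right) or lower (blue, left) with doxorubicin, ordered by median difference, with the number analysed in parentheses. Dotted lines are the shares over all 12311 genes, 11.5% higher and 14.2% lower. Regulatory lists lie past the left line, and nuclear complex I, snoRNAs and matrix proteases lie past the right one.

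The respiratory chain divided by genome. Its subunits come from nuclear genes and, in part, from the small circular mitochondrial DNA, which is transcribed from both strands as long precursors, with ND6 the only protein gene whose mRNA comes from the light-strand transcript. Of the 10 mitochondria-encoded mRNAs on single-symbol probe sets, 9 lay below vehicle. Doxorubicin was the lowest of the 5 arrays for each of those 9, against 25.4% of all analysed genes. ND3 had a log2 signal of 10.28 with doxorubicin and 11.89 to 12.01 on the other 4 arrays, with vehicle the lowest of those 4. ND4L had 11.32 with doxorubicin and 12.15 to 12.49 on the others, and ND2 had 11.37 against 12.22 to 12.49. The remaining log2 differences were -0.79 for CYTB, -0.75 for ND1, -0.72 for ND5, -0.63 for COX3, -0.44 for ND4 and -0.20 for COX1. ND6 was the exception, with 11.03 with doxorubicin, 10.44 with Compound C, 10.45 with GSK 690693, 9.86 with tofacitinib and 10.35 with vehicle. It was the highest of 5 arrays by 0.58 where the other 9 were the lowest. The heavy-strand mRNAs are close to the top of the scale, which ended at 13.18, and whether that limits the size of their differences was not tested. Which strand each probe set reads is not given in the sources used here.

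Most nuclear genes of the same complexes lay above vehicle. Of 32 nuclear complex I genes, 18 were at least 1.5-fold higher and 0 lower, with a median log2 difference of 0.62. Medians were 0.50 for complexes II and III (13 genes, all above vehicle), 0.64 for complex IV (12 genes) and 0.46 for ATP synthase (18 genes). The exceptions were Ndufb9 (-0.22) in complex I, Cox7c, with 5.02 against 5.62, and Cox4i2 (-0.04) in complex IV, and Atp5g1 (-0.05) and Atp5j2 (-0.10) in ATP synthase. Doxorubicin was the highest of the 5 arrays for 27 of the 32 complex I genes, against 35.7% of all analysed genes. Ndufa2 had a log2 signal of 8.07 with doxorubicin against 7.0 with vehicle, and Cox4i1, a core complex IV subunit, had 9.65 against 8.6. The other compounds also lay above vehicle for complex I, with medians of 0.23 for Compound C, 0.03 for GSK 690693 and 0.25 for tofacitinib. Factors that copy and transcribe mitochondrial DNA were on the lower side. Tfam, which packages that DNA and starts its transcription, had 5.54 with doxorubicin, 6.0 with Compound C, 6.97 with GSK 690693, 6.82 with tofacitinib and 6.50 with vehicle. The helicase Twnk (-0.71), the ribosomal RNA methyltransferase Tfb1m (-0.53) and the polymerase Polrmt (-0.27) lay below vehicle, and Tfb2m lay 0.20 above it. Top1mt, the mitochondrial topoisomerase I, had a log2 signal of 7.32 with doxorubicin and 6.32 to 6.99 on the others. Whether these factors bear on the mitochondrial mRNAs was not tested.

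**Figure D4:**
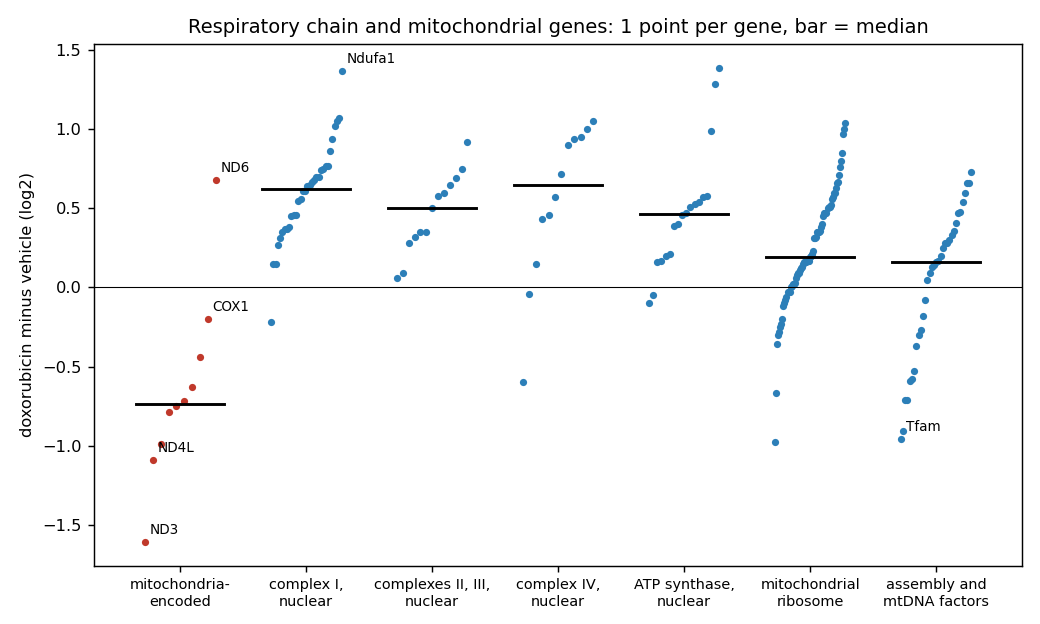
Log2 difference, doxorubicin minus vehicle (vertical), for each analysed gene of 7 mitochondrial groups (horizontal), with a bar at the group median. The mitochondria-encoded mRNAs (red) lie below 0 with a median of -0.73, except ND6 at 0.68, and the 4 groups of nuclear subunits of the complexes have medians of 0.46 to 0.64.

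MicroRNA genes were more often below vehicle than above it. The array hybridises long labelled cDNA, so a microRNA probe set may read the precursor or its host transcript rather than the mature molecule. Of 97 analysed, 13 were at least 2-fold lower and 0 higher, and 24 were at least 1.5-fold lower and 2 higher. Mir145a, known from smooth muscle and fibroblast differentiation, had a log2 signal of 2.67 with doxorubicin, 4.33 with Compound C, 5.07 with GSK 690693, 5.90 with tofacitinib and 6.79 with vehicle. Its cluster partner Mir143 had 4.79 with doxorubicin against 5.91 with vehicle. Carmn, the long RNA that hosts both, had 5.87 with doxorubicin, 6.70 with Compound C, 6.79 with GSK 690693, 7.58 with tofacitinib and 7.61 with vehicle. The readings of 2.67 for Mir145a and Mir125b-1 and of 2.74 for Mir300 with doxorubicin lie far under that array's median of 5.39, so the sizes of their differences cannot be read exactly. Mir145a and Carmn gave the same order of the 5 arrays. Mature sequences from RefSeq are printed for 7 of the genes at least 2-fold lower (build GRCm38.p6, 5′ to 3′), with the seed, bases 2 to 8, in capitals, because the seed sets which mRNAs a microRNA pairs with.
mmu-miR-125b-5p, chr9:41581940-41581961, plus strand: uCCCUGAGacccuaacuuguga
mmu-miR-329-3p, chr12:109713541-109713562, plus strand: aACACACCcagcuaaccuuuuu
mmu-miR-679-5p, chr12:109715587-109715608, plus strand: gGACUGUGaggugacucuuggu
mmu-miR-667-3p, chr12:109720061-109720083, plus strand: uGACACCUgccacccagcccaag
mmu-miR-300-3p, chr12:109724363-109724384, plus strand: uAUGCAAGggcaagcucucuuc
mmu-miR-453, chr12:109735669-109735692, plus strand: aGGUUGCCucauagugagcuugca
mmu-let-7e-5p, chr17:17830366-17830387, plus strand: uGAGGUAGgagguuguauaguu
These 7 have 7 different seeds. The let-7e seed is carried by 13 mature microRNAs of the table and that of miR-125b-5p by 6, so they belong to larger seed families, whereas those of miR-667-3p and miR-300-3p occur once.

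Mir125b-1, which yields miR-125b-5p, had a log2 signal of 2.67 with doxorubicin and 6.16 to 6.53 on the other 4 arrays. Mirlet7e had 4.42 with doxorubicin and 5.63 to 5.69 on the others. For these genes doxorubicin stood alone and the other arrays were level. Mir329, Mir679, Mir667, Mir300 and Mir453 lie in order between Dlk1 and Dio3, an imprinted region whose long maternal transcripts carry many microRNAs. There the arrays were graded. Mir453 had 4.10 with doxorubicin, 5.77 with Compound C, 7.06 with GSK 690693, 7.91 with tofacitinib and 7.92 with vehicle. Mir300 had 2.74 with doxorubicin, 3.36 with Compound C, 4.64 with GSK 690693, 5.56 with tofacitinib and 5.92 with vehicle. Mir667 had 5.03 with doxorubicin, 5.72 with Compound C, 6.25 with GSK 690693, 6.85 with tofacitinib and 7.61 with vehicle. Of 14 microRNA genes analysed in the region, 5 were at least 2-fold lower, against 8 of 83 analysed elsewhere and 6.46% of all analysed genes. Mir679 reached the filter on the vehicle array alone, so it had to lie on the lower side. Mir300 reached it only with tofacitinib and vehicle. These counts are therefore not read as an excess in the region. The neighbours of the 5 lower genes were not alike, since Mir666, between Mir679 and Mir667, had 5.77 with doxorubicin and 5.69 with vehicle. Rian, a long RNA of the region, had 8.0 against 8.46. Mir5099 was lower on a bright signal, with 9.55 with doxorubicin and 12.84 to 12.91 on the others. Dicer1, which cuts precursors into mature microRNAs, had 5.84 with doxorubicin and 7.10 to 7.75 on the others.

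**Figure D5:**
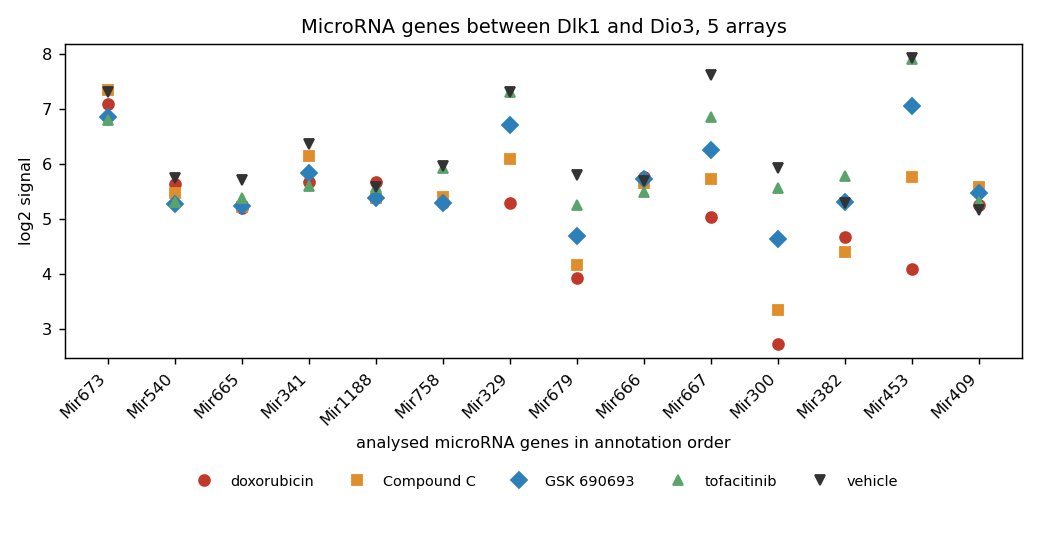
Log2 signal (vertical) on the 5 arrays for the 14 analysed microRNA genes between Dlk1 and Dio3, in annotation order (horizontal). Doxorubicin is the lowest marker at Mir329, Mir679, Mir667, Mir300 and Mir453, and the 5 arrays lie close together at Mir1188, Mir666 and Mir409.

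Small nucleolar RNAs, which guide modification of ribosomal and spliceosomal RNA and are mostly cut from introns, had list medians above vehicle with all 4 compounds. Of 69 analysed, 30 were at least 1.5-fold higher and 7 lower. Snora30 had a log2 signal of 7.71 with doxorubicin, 6.16 with Compound C, 6.70 with GSK 690693, 6.25 with tofacitinib and 5.65 with vehicle. Snord66 had 8.84 with doxorubicin, 8.39 with Compound C, 8.26 with GSK 690693, 8.07 with tofacitinib and 7.28 with vehicle. These medians were 0.50 with doxorubicin, 0.53 with Compound C, 0.48 with GSK 690693 and 0.38 with tofacitinib. With 1 array per group, a low vehicle array and high treated arrays cannot be told apart here. Snora23 was the 1 member at least 2-fold lower, at 7.38 with doxorubicin, 8.57 to 8.86 with the other compounds and 9.63 with vehicle. The box C/D proteins Nop56 and Nop58 had 9.25 and 9.43 with doxorubicin, against 10.09 and 10.27 with vehicle. Among long non-coding RNAs, the snoRNA host Snhg5 had 5.58 with doxorubicin and 7.28 to 8.10 on the others. Neat1, the scaffold of nuclear paraspeckles, had 7.73 against 9.18 to 9.85, while Malat1 had 11.84 against 11.63 to 11.97.

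The largest differences above vehicle were smaller than the largest below it. Caprin2, an RNA-binding protein that enhances Wnt signalling, had a log2 signal of 7.58 with doxorubicin, 5.44 with Compound C, 5.66 with GSK 690693, 6.09 with tofacitinib and 5.63 with vehicle. Cxcr4, the receptor of Cxcl12, had 7.37 with doxorubicin and 5.67 to 6.11 on the others, and Dgat2, which makes triglycerides, had 8.23 against 6.69 to 7.05. These 3 stood over every other array by a log2 gap above 1. Of 14 genes that carry or convert anthracyclines, 5 were at least 1.5-fold higher and 0 lower. Nqo1, a quinone reductase, had 8.25 with doxorubicin, 7.48 with Compound C, 7.44 with GSK 690693, 7.52 with tofacitinib and 6.75 with vehicle. Xdh, xanthine dehydrogenase, had 6.92 against 5.81 with vehicle. The efflux pumps Abcb1a and Abcb1b, the P-glycoproteins of the mouse, had 6.62 and 8.45 with doxorubicin, against 5.88 and 7.76 with vehicle, and for Abcb1a Compound C was higher still at 7.01.

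Of 35 matrix proteases and their inhibitors, 32 lay above vehicle, 11 at least 1.5-fold, and 1 was at least 1.5-fold lower (Adam19, -0.61). Fap, a fibroblast surface protease, had a log2 signal of 6.50 with doxorubicin, 6.02 with Compound C, 5.31 with GSK 690693, 5.28 with tofacitinib and 4.91 with vehicle. Ctsk, the collagen-cutting cathepsin K, had 8.62 against 7.64 to 8.09 on the others, Mmp2 10.69 against 9.82 to 10.23 and Mmp10 11.12 against 10.06 to 10.46. Doxorubicin was the highest of 5 arrays in 26 of the 35, against 35.7% of all analysed genes. Lum, a keratan sulfate proteoglycan that orders collagen fibres, had 8.10 with doxorubicin and 6.30 to 6.95 on the others, and the hyaluronan synthase Has2 had 8.46 against 10.26 with vehicle. The unfolded protein response list had 6 members at least 2-fold lower and 0 higher, yet a median of 0.33. Over all analysed genes the 2-fold shares were 6.46% lower and 1.33% higher. Of this list, the regulators Ppp1r15b (-2.10), Xbp1 (-1.80) and Eif2ak3 (-1.05) were lower, and the translocon and chaperone genes Sec61b (0.86), Ssr4 (0.77) and Sdf2l1 (0.77) were higher.

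Genes of hypoxia and sugar use were found on both sides. Of 22 hypoxia targets, 9 were at least 1.5-fold higher and 5 lower. Vegfa, the endothelial growth factor, had a log2 signal of 9.20 with doxorubicin and 9.95 to 10.64 on the others, and Adm, adrenomedullin, had 8.33 against 9.60 to 9.97. The carbonic anhydrases Car9 and Car12 had 7.29 and 7.10 with doxorubicin, against 6.47 and 6.08 with vehicle. Vegfa and Adm were thus lowest with doxorubicin while Car9 and Car12 were highest with it. Among 23 glycolysis genes, 7 were at least 1.5-fold higher and 1 lower. The phosphofructokinase subunit Pfkm had 7.55 against 6.56 with vehicle, the monocarboxylate carrier Slc16a1 had 9.81 against 8.85, and Pfkfb4, which makes an activator of phosphofructokinase, had 5.02 against 5.81. Of 14 subunits of the vacuolar proton pump, 5 were at least 1.5-fold higher and 0 lower, and the list median was 0.36 with doxorubicin and 0.46 with GSK 690693. The antioxidant regulator Nfe2l2 had 9.46 with doxorubicin and 10.06 to 10.67 on the others, and its targets followed no single direction. Taldo1 had 8.62 with doxorubicin, 8.08 to 8.15 with the other compounds and 7.67 with vehicle. Gsta4 lay 0.87 above vehicle, while Hmox1, Gclc and Gclm differed by -0.03, -0.19 and -0.24.

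At the edge of the filter, Camsap3 and Cmya5 were just inside and Astn2 and Calm4 just outside, with log2 differences of 0.04, 0.05, -0.12 and -0.12. On the doxorubicin array alone, 208 genes reached the filter, and 11 of them are among the 164 higher genes, a side on which they had to lie. Of 30 genes at least 2-fold apart that had a further probe set above the filter, 14 had every such probe set at least 1.5-fold the same way and 16 did not.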

How the data were processed

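Total RNA from each of the 5 cultures (300 ng) was labelled with the GeneChip WT PLUS kit and hybridised to an Affymetrix array, per the labels' protocols. The authors deposited log2 signals per probe set. Affymetrix Expression Console 1.3.1.187 is named in the submitters' processing notes, and no summarisation, normalization or genome build is stated there. Of 41345 probe sets, 23521 carried 1 gene symbol in the platform annotation, 1814 several and 16010 none listed. A gene was read from its probe set of highest mean. Differences were taken with Python 3.11.15, pandas 2.3.3 and numpy 2.4.6, and the counting was tested on simulated data.

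With 1 array per group there is no test. Genes and lists were chosen with earlier results of these data known. The naming rule took the 20 largest differences each way outside small RNA and predicted genes, all members of lists of at most 12 and otherwise the 6 with the largest absolute difference, the 10 largest gaps each way to the nearest other array, and fixed genes of interest. Other genes named, among them the small RNA genes, were chosen after their values were seen. Alternatives changed the scaling, the filter, the probe set, the array compared and the fold counted.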

Additional observations from a re-analysis of the deposited data

How the results depend on the processing

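The count of genes at least 2-fold higher was 164. It was 105 with a filter at the 75th percentile, 59 against the median of the other 4 arrays and 1421 at 1.5-fold. With each array centred on its median it was 227, with quantile normalization 182, with no filter 197 and with the mean of a gene's probe sets 159. The count at least 2-fold lower was 795. It was 1750 at 1.5-fold, and 580 to 861 under the other settings. Centring moved the share of higher genes among those 2-fold apart to 24.4%, against 17.1% as reported. Against the median of the other 4 arrays, 718 of the 795 lower genes and 37 of the 164 higher genes were still at least 2-fold apart. In that setting the BCL2 family median was 0.05 (-0.28 against vehicle) and Trim30d differed by 0.615 (-1.32 against vehicle), and the cause was not tested. List medians moved by more than 1 SD between GSK 690693 and tofacitinib in 9 lists with the stricter filter, 3 with no filter and 3 against the other 4 arrays. No paired analysis was possible because each group has 1 array. No array could be left out of a group, and the low signal of dim probe sets limits what can be read there.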
